A study of Mus musculus with 8 samples.

Results

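The motile cilium genes examined here are 10 genes whose products build, or switch on, the beating cilia of ependymal cells, the epithelium that lines the brain ventricles. They are Foxj1, Ccdc39, Ccdc40, Cfap44, Dnah5, Dnah6, Rsph1, Tekt1, Spag17 and Ccdc153. The genes were chosen by name from a table of 31417 mouse genes. All 10 were in the table and passed the filter on low counts that left 16228 genes for testing. The study measured poly(A) RNA of bulk hippocampus by sequencing in 4 libraries from Dclk3 knockout (KO) mice and 4 libraries from wild-type (WT) mice. Dclk3 encodes doublecortin-like kinase 3, and the mice were 12 months old. Every library was prepared from a single hippocampus. Whether the libraries of a genotype came from different animals is not stated, so p-values measure the spread between these libraries, which may be technical. The sources used here name neither the strain nor the part of Dclk3 that was removed.

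A motile cilium carries a ring of doublet microtubules around a central pair. Dynein motors sit on the doublets as outer and inner arms and make them slide, and radial spokes, the central pair and the regulatory complexes between doublets turn sliding into a beat. In the adult brain this machinery belongs to ependymal cells, and the epithelium of the choroid plexus, the tissue that secretes cerebrospinal fluid, carries cilia related to theirs. Hippocampal neurons and astrocytes carry a single primary cilium, which shares the transport system of motile cilia but lacks their dynein arms. In bulk tissue, fewer cells of a type and less RNA per cell cannot be told apart.

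Libraries held 29301974 to 35268128 counts in KO and 30387045 to 36552757 counts in WT. Levels are given as CPM, a gene's counts relative to the library's total, after scaling by trimmed mean of M-values (TMM) factors. Dclk3 itself lay between 5.92 and 9.29 CPM in KO libraries, against 20.8 to 39.3 CPM in WT libraries, so no library went against its label. On the log2 scale its fold change was -1.79 with SE 0.22 (adjusted p in edgeR = 0.234), and without WT replicate 2, its highest library, the adjusted p was 0.0121. All 8 hippocampal neuron markers listed were present in every library, with at least 658 counts each. Of the marker lists read here, that of the choroid plexus differed most between libraries. Its 16 choroid plexus epithelium markers summed to 204, 3595, 1173 and 263 CPM in KO replicates 1 to 4, against 211, 2351, 954 and 82.3 CPM in WT replicates 1 to 4. None of the 16 markers was at 0 in any library, and the lowest count was 2. WT replicate 2 also stood apart in Gfap, an astrocyte filament gene, with 1805 CPM against 442 to 567 CPM in the other WT libraries.

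No motile cilium gene differed between KO and WT at an adjusted p under 0.05 in edgeR, the test used for all 16228 genes. That test called 0% of all genes. At an unadjusted p under 0.05 it marked 1000 genes, 6.16% of those tested, and among the 10 motile cilium genes it marked Ccdc39 and Cfap44, both higher in KO. The background for that direction was 3.96% of all genes tested, 643 in number. DESeq2 called 5 genes, 0.0321% of those it tested, and limma-voom called 0; neither called a motile cilium gene. In none of the 10 genes did KO and WT libraries part without overlap, where 3.8% of all genes did, 1.88% with KO higher and 1.92% with KO lower. The log2 fold change of KO over WT was above 0 in 8 of 10 genes, against 50.1% of all genes tested, but in 4 of 10 once WT replicate 4 was left out. Its median was 0.08 over the 10 genes and 0.00029 over all genes. Beside this, 15 of 16 choroid plexus markers were above 0, with a median of 0.30, and 0 of 8 neuron markers, with a median of -0.08; their part in the tally of the 10 genes was not tested.

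**Figure D1:**
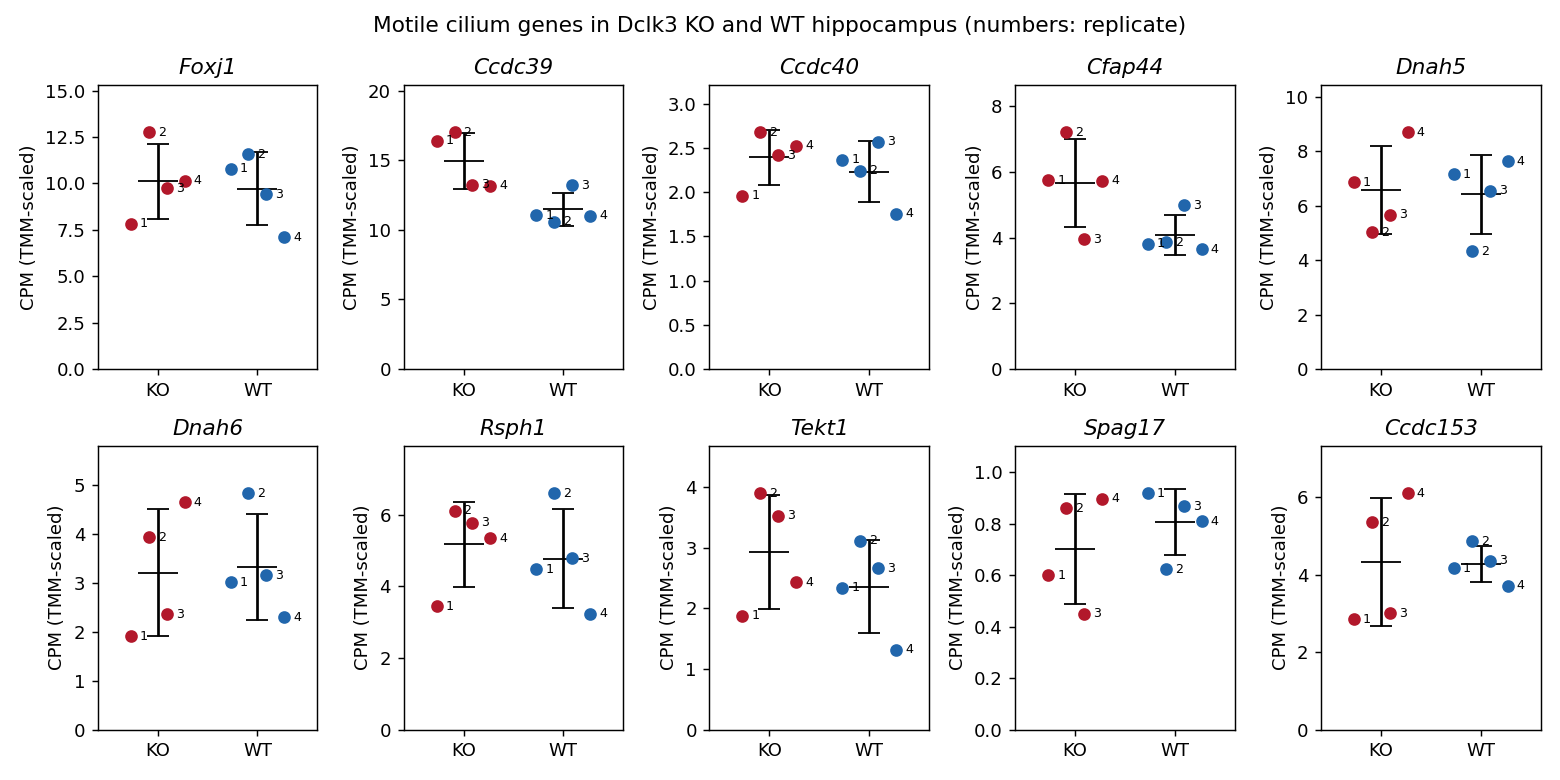
TMM-scaled CPM of each motile cilium gene in 4 KO (red, left) and 4 WT (blue, right) libraries. Numbers give the replicate, bars the mean and SD. The genotypes overlap in every panel, and Ccdc39 comes closest to parting, with 13.18 CPM in the lowest KO library and 13.23 CPM in the highest WT library.

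Foxj1 encodes the forkhead transcription factor that turns on the motile cilium programme. The gene (ENSMUSG00000034227) lies at mm10 chr11:116330704-116335399 on the minus strand and overlaps no other annotated gene. It had 7.84, 12.8, 9.76 and 10.1 CPM in KO replicates 1 to 4, against 10.8, 11.6, 9.41 and 7.09 CPM in WT replicates 1 to 4. KO replicate 2 was the highest library and WT replicate 4 the lowest, and the other libraries of both genotypes lay between them. KO over WT came to 0.06 on the log2 scale, with SE 0.18 (adjusted p in edgeR = 0.963), and the exact two-sided permutation p over the 8 libraries was 0.771, where 4 against 4 allows none below 0.0286. The sign turned to -0.07 without KO replicate 2 and to -0.07 without WT replicate 4.

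Ccdc39 and Ccdc40 encode partner coiled-coil proteins that act as a ruler for the spacing of dynein arms and spokes along the doublets. Ccdc39 (ENSMUSG00000027676, mm10 chr3:33812362-33844310, minus strand) had 16.4, 17.0, 13.3 and 13.2 CPM in KO replicates 1 to 4. In WT replicates 1 to 4 it had 11.1, 10.6, 13.2 and 11.04 CPM. Means were 14.97 ± 2.04 CPM in KO and 11.5 ± 1.18 CPM in WT (SD, n = 4 each), a log2 fold change of 0.38 (SE 0.11). The unadjusted p was 0.00657 in edgeR, the adjusted p 0.796 and the exact permutation p 0.0571. Over all the alternatives tried the fold change kept its sign, from 0.28 to 0.46, with an edgeR, DESeq2 or limma adjusted p of 0.254 to 0.9998.

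Ccdc39 shares 1256 of its exon bases, 16.9% of them, with Ttc14, a tetratricopeptide-repeat gene on the opposite strand. The library kit kept strand, but the sources used here do not say whether the counting used it, so reads of the shared stretch cannot be assigned. Ttc14 took more counts than Ccdc39, with 111.6, 98.0, 82.4 and 62.6 CPM in KO replicates 1 to 4, against 56.3, 48.3, 66.9 and 45.8 CPM in WT replicates 1 to 4. On the log2 scale its fold change was 0.71 with SE 0.18 (unadjusted p = 0.00369; adjusted p in edgeR = 0.796). The libraries stood in nearly the same order in both genes: KO replicates 1 and 2 were the highest pair, then came KO replicate 3, WT replicate 3, KO replicate 4 and WT replicate 1, and WT replicates 2 and 4 were the lowest pair. What Ttc14 reads add to the Ccdc39 counts was not tested. Ccdc40 (ENSMUSG00000039963, mm10 chr11:119228572-119265238, plus strand) overlaps no gene. It had 1.96, 2.68, 2.42 and 2.53 CPM in KO replicates 1 to 4, against 2.37, 2.24, 2.57 and 1.76 CPM in WT replicates 1 to 4, a log2 fold change of 0.10 with SE 0.17 (adjusted p in edgeR = 0.927). WT replicate 4 was its lowest library and KO replicate 2 its highest, and the other KO and WT values were intermixed.

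**Figure D2:**
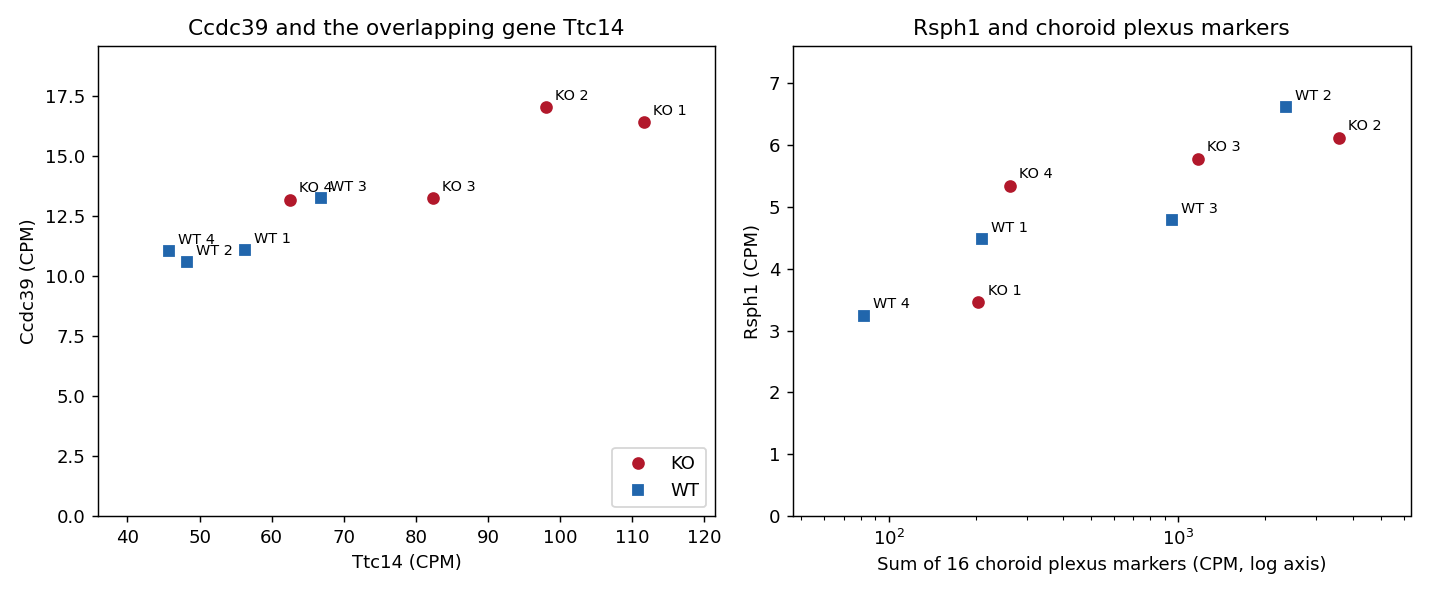
Left, CPM of Ccdc39 against CPM of Ttc14, the gene that overlaps it on the opposite strand; right, CPM of Rsph1 against the summed CPM of 16 choroid plexus markers (log axis), for 4 KO (circles) and 4 WT (squares) libraries. Ccdc39 is highest in the 2 libraries highest in Ttc14, and Rsph1 is highest in the 2 libraries with 3595 and 2351 CPM of choroid plexus markers. Of the genes not plotted, Foxj1 ranks 1 and 2 of 8 in those libraries, KO 2 and WT 2, and Dnah5 ranks 7 and 8.

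Cfap44 encodes a protein that, as shown in the alga Chlamydomonas, helps tether an inner dynein arm to the doublet. The gene (ENSMUSG00000071550, mm10 chr16:44394796-44482428, plus strand) overlaps no annotated gene. KO replicates 1 to 4 held 5.74, 7.21, 3.94 and 5.73 CPM, against 3.81, 3.86, 4.98 and 3.65 CPM in WT replicates 1 to 4. Only KO replicate 3 and WT replicate 3 crossed; without either of them the genotypes did not overlap in this gene. Means were 5.66 ± 1.34 CPM in KO and 4.08 ± 0.609 CPM in WT (SD, n = 4 each), with a log2 fold change of 0.47 (SE 0.18). The unadjusted edgeR p was 0.0260, the adjusted p 0.796 and the exact permutation p 0.0571. The fold change stayed between 0.32 and 0.61 in every alternative tried, and the adjusted p between 0.445 and 0.9998. With both libraries numbered 2 left out, neither Cfap44 nor Ccdc39 had an unadjusted p under 0.05.

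The dynein motor genes had KO and WT means close to each other. Dnah5 (ENSMUSG00000022262, mm10 chr15:28203752-28472052, plus strand) is a heavy chain of the outer arm, and its human counterpart is a common site of mutation in primary ciliary dyskinesia. It had 6.86, 5.03, 5.67 and 8.70 CPM in KO replicates 1 to 4, against 7.15, 4.33, 6.55 and 7.63 CPM in WT replicates 1 to 4. The libraries numbered 2 were the lowest of their genotype and those numbered 4 the highest, so Dnah5 ran against Foxj1. On the log2 scale its fold change was 0.03 with SE 0.21 (adjusted p in edgeR = 0.981), and it was below 0 without KO replicate 4 (-0.13), without WT replicate 2 (-0.11) and in limma-voom (-0.20). Dnah6 (ENSMUSG00000052861, mm10 chr6:73017606-73221651, minus strand), an inner arm heavy chain, had 1.90, 3.93, 2.35 and 4.64 CPM in KO replicates 1 to 4. In WT replicates 1 to 4 it had 3.01, 4.83, 3.15 and 2.30 CPM. WT replicate 2 was its highest library and KO replicate 1 its lowest, a 2.54-fold range. KO over WT came to -0.05 on the log2 scale, with SE 0.31 (adjusted p in edgeR = 0.981), and it ran from -0.29 to 0.19 over the alternatives. The antisense gene Gm20560 overlaps 1.26% of the Dnah6 exon bases.

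Rsph1, Tekt1 and Spag17 belong to the radial spokes, the doublet wall and the central pair. Rsph1 (ENSMUSG00000024033, mm10 chr17:31255019-31277383, minus strand) encodes a protein of the radial spoke head. It had 3.46, 6.12, 5.78 and 5.34 CPM in KO replicates 1 to 4, against 4.48, 6.61, 4.79 and 3.24 CPM in WT replicates 1 to 4. Its highest libraries were WT replicate 2 and KO replicate 2, the pair richest in choroid plexus markers. Its lowest were WT replicate 4 and KO replicate 1, with the lowest marker sums, 82.3 and 204 CPM. The sums of WT replicate 1 and KO replicate 4 lay close to that of KO replicate 1, at 211 and 263 CPM. For Rsph1, KO over WT came to 0.11 on the log2 scale, with SE 0.23 (adjusted p in edgeR = 0.942). Tekt1 (ENSMUSG00000020799, mm10 chr11:72344722-72362442, minus strand) encodes a tektin, a filament protein of the doublet wall. It had 1.88, 3.90, 3.53 and 2.43 CPM in KO replicates 1 to 4, against 2.34, 3.12, 2.67 and 1.32 CPM in WT replicates 1 to 4. KO replicate 2 was highest and WT replicate 4 lowest, a 2.96-fold range that was the widest among the 10 genes. KO over WT came to 0.31 on the log2 scale, with SE 0.29 (adjusted p in edgeR = 0.856), between 0.11 and 0.59 over the alternatives. Spag17 (ENSMUSG00000027867, mm10 chr3:99885406-100143322, plus strand) encodes a protein of a central pair projection. It was the scarcest gene, with 22, 26, 13 and 28 counts in KO replicates 1 to 4 and 33, 20, 27 and 24 counts in WT replicates 1 to 4. The exact Poisson interval (95%) of the lowest count, 13, ran from 6.92 to 22.2 counts, which covers counting error alone. Its levels were 0.701 ± 0.213 CPM in KO and 0.805 ± 0.129 CPM in WT (SD, n = 4 each), with a log2 fold change of -0.20 with SE 0.26 (adjusted p in edgeR = 0.898). Exons of Wdr3 and of the antisense gene Spag17os, both on the opposite strand, overlap 9.66% and 6.08% of its exon bases, and reads there cannot be assigned.

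Ccdc153 encodes a coiled-coil protein and serves as a marker of ependymal cells in mouse brain atlases. The gene (ENSMUSG00000070306) lies at mm10 chr9:44240676-44247306 on the plus strand. It had 2.86, 5.36, 3.01 and 6.11 CPM in KO replicates 1 to 4, against 4.17, 4.86, 4.37 and 3.71 CPM in WT replicates 1 to 4. All 4 WT libraries lay inside the KO range, where KO replicates 2 and 4 were high and KO replicates 1 and 3 were low. SDs were 1.65 CPM in KO and 0.476 CPM in WT (n = 4 each) around means of 4.33 CPM in KO and 4.28 CPM in WT. KO over WT came to 0.02 on the log2 scale, with SE 0.24 (adjusted p in edgeR = 0.993).

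**Figure D3:**
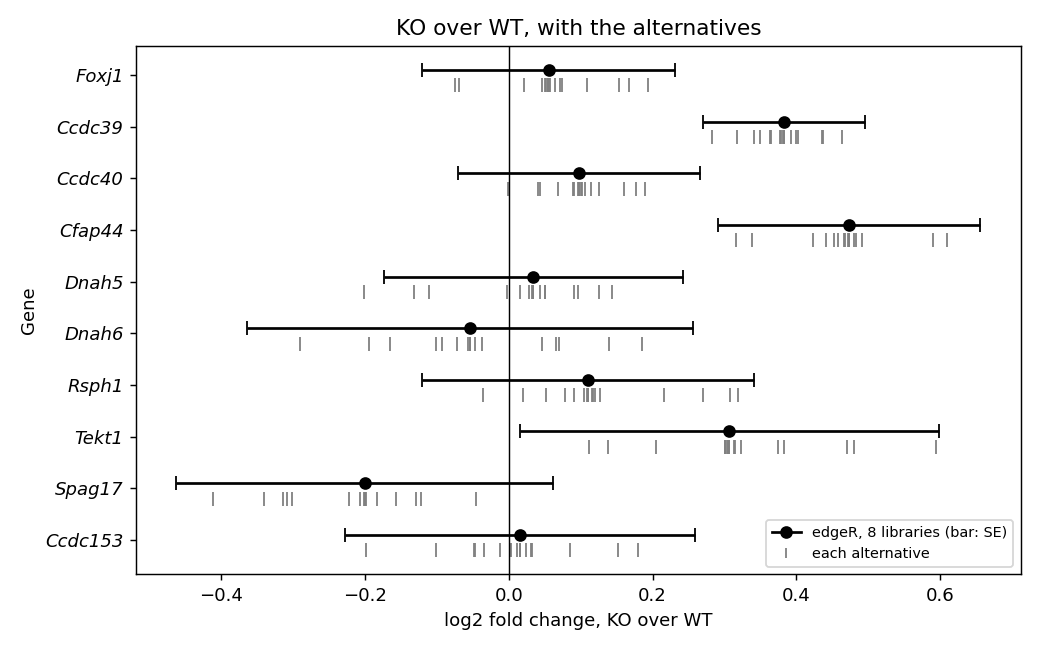
Log2 fold change of KO over WT for each motile cilium gene. Black points and bars give the edgeR estimate over 8 libraries and its SE, and grey ticks give the value under each alternative. Ccdc39, Cfap44 and Tekt1 stay above 0 and Spag17 below 0 throughout, while the other 6 genes have ticks on both sides of 0.

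Compared per length of merged exons, Foxj1 and Rsph1 were the most abundant, with means over the 8 libraries of 3.78 ± 0.711 and 3.63 ± 0.886 CPM per kb (SD). Foxj1 exceeded Rsph1 in 5 of 8 libraries, so that order did not hold beyond the spread. Ccdc153 followed at 2.12 ± 0.551 CPM per kb, below Rsph1 in 8 of 8 libraries. Next came Ccdc39 at 1.78 ± 0.325 and Tekt1 at 1.63 ± 0.525 CPM per kb, an order seen in 5 of 8 libraries. Cfap44 had 0.579 ± 0.152 CPM per kb, Dnah5 0.415 ± 0.0912 and Ccdc40 0.384 ± 0.0525. Dnah5 exceeded Ccdc40 in 4 of 8 libraries. The lowest were Dnah6 at 0.246 ± 0.0832 and Spag17 at 0.0887 ± 0.0203 CPM per kb, and of the 9 neighbouring pairs in this order only Dnah6 and Spag17 had ranges that did not touch. A level per length assumes even coverage of the exons in the annotation.

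**Figure D4:**
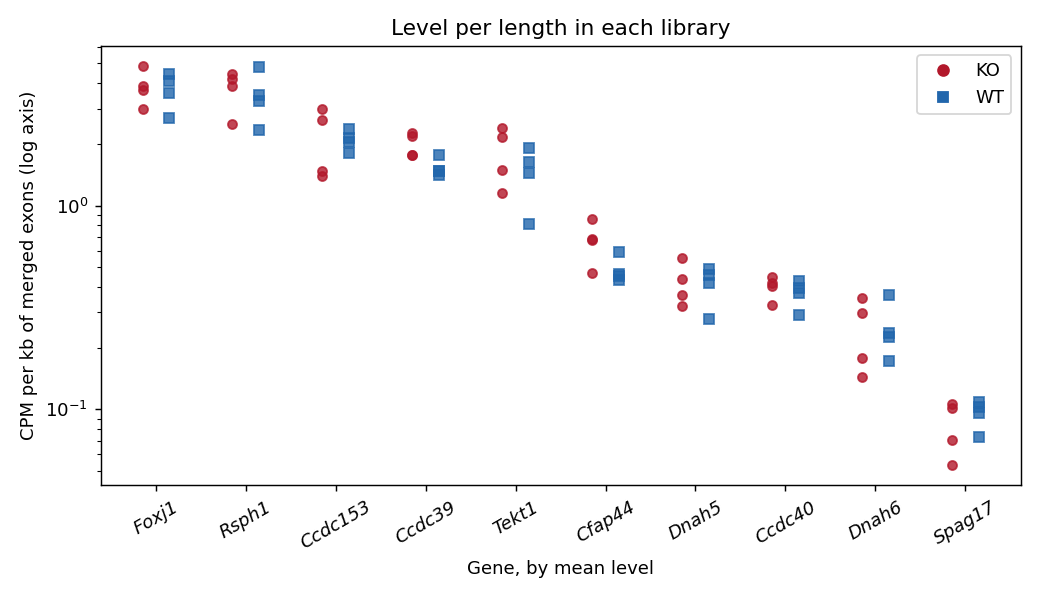
CPM per kb of merged exons (log axis) for each motile cilium gene in 4 KO (circles, left of each pair) and 4 WT (squares) libraries, ordered by mean level. Foxj1 and Rsph1 lead at means of 3.78 and 3.63 CPM per kb and Spag17 is lowest at 0.0887.

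Among themselves the genes varied more between libraries than the average gene, and not all in one way. Their median coefficient of variation over the 8 libraries was 23.7%, against 10.7% for all genes tested, a difference that includes the counting error of low counts. KO replicate 2 was the highest library for 5 of the 10 genes and WT replicate 4 the lowest for 5. KO replicate 1 and WT replicate 4 were each among the lowest 2 libraries for 7 of the 10. Over the 8 libraries the Pearson r of log2 CPM between pairs of the genes ran from -0.68 to 0.93 with a median of 0.30 over 45 pairs, and 10 pairs were above 0.7. These r values describe 8 libraries that each contribute 1 point to every gene, and no test was made of them. Foxj1, Rsph1, Tekt1 and Ccdc40 were lowest in WT replicate 4, next lowest in KO replicate 1 and highest or next highest in KO replicate 2. Their r was 0.78 to 0.92 for 6 pairs. Elsewhere they parted, as WT replicate 2 ranked 2, 1 and 3 of 8 in Foxj1, Rsph1 and Tekt1, but 6 in Ccdc40. Dnah6 and Ccdc153 had an r of 0.93 and shared high values in KO replicate 4. Ccdc39 and Cfap44 formed a pair of their own at 0.88, and Dnah5 was opposed to Tekt1 at -0.68. These sets were picked after the values were seen.

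The choroid plexus markers shared their highest and lowest library with 3 genes of the first set and with Cfap44. Of the 16 markers, 14 were highest in KO replicate 2 and 14 were lowest in WT replicate 4. Foxj1, Tekt1, Ccdc40 and Cfap44 were highest and lowest in the same libraries. Between these ends the orders differed: WT replicate 2, with 2351 CPM of summed markers, was 6th of 8 for Ccdc40, and KO replicate 3, with 1173 CPM, was 5th for Foxj1. Dnah5 ranked 7 of 8 in KO replicate 2 and 8 in WT replicate 2, the libraries richest in the markers. Ttr, the transthyretin gene that dominates choroid plexus RNA, ranged 99.2-fold over the libraries, while the 10 motile cilium genes ranged 1.53-fold to 2.96-fold. The summed markers ran from 204 to 3595 CPM in KO and from 82.3 to 2351 CPM in WT, and their part in the levels of the motile cilium genes was not tested. KO replicate 4 departed from that order. It held 263 CPM of choroid plexus markers, yet was the highest library for Dnah5 and Ccdc153 and the second highest for Dnah6 and Spag17. The ependymal markers outside the 10 genes, 16 of 17 tested, summed to 76.6, 84.0, 76.4 and 88.8 CPM in KO replicates 1 to 4, against 81.6, 90.5, 87.2 and 65.8 CPM in WT replicates 1 to 4. Over these 16 markers, the median r with the mean standardized level of the 10 genes, described below, was 0.67, against 0.0070 for all genes. The most abundant of the markers, Tppp3, Tm4sf1 and Rarres2, had no library order in common. Tppp3 and Tm4sf1 were not in the shorter set of ependymal markers that was planned. What other cell types add to the sum was not tested. Tppp3 had 24.9, 23.7, 24.98 and 30.3 CPM in KO replicates 1 to 4, against 27.4, 19.5, 24.6 and 22.1 CPM in WT replicates 1 to 4, and was lowest in WT replicate 2. Tm4sf1 had 17.6, 15.4, 15.3 and 18.7 CPM in KO replicates 1 to 4, against 15.8, 29.95, 20.1 and 12.4 CPM in WT replicates 1 to 4, and was highest in WT replicate 2. Rarres2 ran from 6.89 to 9.53 CPM in KO and from 7.51 to 9.92 CPM in WT, and was lowest in KO replicate 3. The scarcer Tmem212, picked after its values were seen, was lowest in KO replicate 1 (1.44 CPM) and WT replicate 4 (1.62 CPM).

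**Figure D5:**
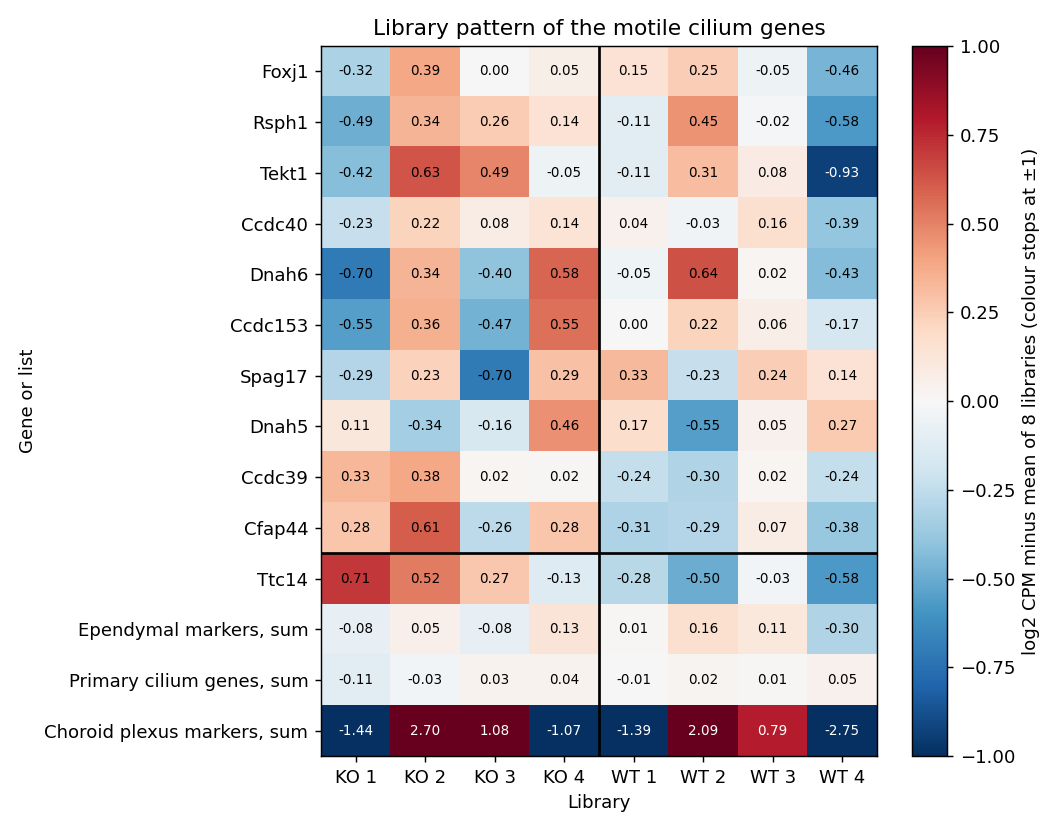
Log2 CPM minus the mean of the 8 libraries for the motile cilium genes (above the line) and for Ttc14 and 3 marker sums (below it), with KO libraries left of the vertical line and WT libraries right of it. Foxj1, Rsph1 and Tekt1 are lowest in KO 1 and WT 4, the choroid plexus sum ranges 43.7-fold, and the primary cilium sum ranges 1.12-fold.

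The genes whose library pattern was most like that of the 10 were sought by the r of each other gene's log2 CPM with the mean standardized level of the 10 over the 8 libraries. The 10 highest were Gm26560 (0.97), Smim5 (0.94), Ccdc170 (0.93), Tmco4 (0.92), Cfap206 (0.92), Frmpd2 (0.92), Lrrc23 (0.92), Cpt1a (0.91), Fam102b (0.91) and Tcaf2 (0.90). Cfap206 and Lrrc23 encode radial spoke proteins and were on the list of spoke genes. Cfap206 had 1.09, 2.78, 1.38 and 1.73 CPM in KO replicates 1 to 4, against 1.56, 1.71, 2.12 and 0.810 CPM in WT replicates 1 to 4, again lowest in WT replicate 4 and KO replicate 1. An r above 0.7 was found for 29.6% of the other listed motile cilium genes, 29 of 98 tested, for 2.94% of primary cilium genes, 1 of 34, for 0 of 16 choroid plexus markers and for 2.32% of all genes tested. The median r was 0.58 for choroid plexus markers and 0.49 for the other listed motile cilium genes. It was 0.23 for primary cilium genes and 0.0070 for all genes tested. The 10 genes are themselves part of the mean standardized level, so they are left out of these values except those for all genes tested.

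The rest of the machinery was read from 9 lists of 105 genes, of which 103 were found and 98 tested. edgeR called 0 of the 98, as did DESeq2 and limma-voom; at an unadjusted p under 0.05 there were 3 higher (Rfx3, Wdr78 and Cfap69) and 1 lower (Lrrc6) in KO. The background was 3.96% of all genes for higher and 2.2% for lower. The log2 fold change was above 0 in 56 of 98, and the median was 0.04; the number above 0 was 42 without KO replicate 2 and 44 without WT replicate 4. By part of the axoneme, 10 of 12 inner arm genes, 9 of 14 central apparatus genes and 6 of 10 spoke genes lay above 0. So did 5 of 8 outer arm genes, 7 of 13 tektin and inner-wall genes, 4 of 9 arm assembly genes, 2 of 8 regulatory complex genes, 8 of 16 ependymal markers and 5 of 8 regulators. Medians ran from -0.08 for the regulatory complex to 0.16 for inner arms.

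KO and WT did not overlap in 3 of the 98 genes, all higher in KO, a background of 1.88% of all genes in that direction. They were Rfx3, a transcription factor of ciliary genes that neurons express too, the inner arm gene Wdr78 and the central apparatus gene Spef1. Rfx3 had 133.3, 139.6, 149.6 and 176 CPM in KO replicates 1 to 4, against 132, 130.3, 122 and 131 CPM in WT replicates 1 to 4. On the log2 scale its fold change was 0.21 with SE 0.08 (adjusted p in edgeR = 0.796). Wdr78 averaged 9.56 ± 0.444 CPM in KO and 7.93 ± 0.935 CPM in WT, and Spef1 7.79 ± 0.306 CPM in KO and 6.90 ± 0.388 CPM in WT (SD, n = 4 each). Cfap69, of the central apparatus, averaged 9.62 ± 1.34 CPM in KO and 7.36 ± 1.11 CPM in WT, a log2 fold change of 0.39 with SE 0.13 (adjusted p in edgeR = 0.796). On the other side Lrrc6, needed for dynein arm assembly, averaged 3.95 ± 0.406 CPM in KO and 5.46 ± 0.808 CPM in WT, a log2 fold change of -0.47 with SE 0.14 (adjusted p in edgeR = 0.796). Spef1 and Lrrc6 were picked after their values were seen, as was Mcidas, described next.

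Other abundant genes of these lists had log2 fold changes on both sides of 0. Spag1, an arm assembly gene, averaged 9.42 ± 1.19 CPM in KO and 8.04 ± 0.801 CPM in WT, and Gas8, of the regulatory complex, 15.8 ± 1.79 CPM in KO and 13.99 ± 0.237 CPM in WT. Their values on the log2 scale were 0.23 and 0.18, and those of Tppp3 and Tm4sf1 were 0.15 and -0.22. Dnah9, an outer arm heavy chain, averaged 21.96 ± 4.30 CPM in KO and 23.4 ± 2.996 CPM in WT. Rsph9, of the spoke head, averaged 14.6 ± 1.10 CPM in KO and 15.2 ± 1.37 CPM in WT. Cfap74, of the central apparatus, averaged 11.7 ± 1.86 CPM in KO and 11.5 ± 0.851 CPM in WT (SD, n = 4 each throughout). None of these 7 genes passed the edgeR test, with adjusted p of 0.796 to 0.979. Mcidas, a regulator of multiciliated cell formation, was too scarce to test, with 15, 6, 5 and 8 counts in KO replicates 1 to 4 and 8, 6, 2 and 3 counts in WT replicates 1 to 4. Genes of intraflagellar transport and the primary cilium, which neurons also use, had 15 of 34 above 0 with a median of -0.0058. Their summed level ranged 1.12-fold over the 8 libraries, from 1124 to 1247 CPM in KO and 1209 to 1256 CPM in WT.

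Promoter sequences are shown because several of the genes varied together over the libraries and because RFX factors, partners of FOXJ1 in this programme, bind a palindromic element named the X-box. RefSeq windows of 300 bases on GRCm38.p6, from 250 before to 50 after a start site, were found for 8 of the 10 genes (9 windows), all but Foxj1 and Rsph1. A full X-box word (GTTNCC, any 2 bases, GGNAAC), a looser one (GTNNCC, any 2 bases, GGNNAC) and the forkhead word GTAAACA, searched on both strands, matched 0 of the 9 windows, against 0.451%, 1.88% and 3.65% of all 32851 windows. After the windows were read, looser words that keep 1 arm of the X-box were searched. The run GTTGC, any 7 bases and AC was in 3 of 9 windows and in 3.21% of all, and GTTGC, any 6 bases and AC in 1 of 9 and in 2.75% of all. GTTGC alone was in 7 of 9 windows and in 35.2% of all. Words chosen in that way describe these windows only, and a match is not a binding site. The 4 windows that hold either of the longer runs follow 5′ to 3′ on the gene's strand, with that match in capitals.
Cfap44, chr16:44394549-44394848, plus strand: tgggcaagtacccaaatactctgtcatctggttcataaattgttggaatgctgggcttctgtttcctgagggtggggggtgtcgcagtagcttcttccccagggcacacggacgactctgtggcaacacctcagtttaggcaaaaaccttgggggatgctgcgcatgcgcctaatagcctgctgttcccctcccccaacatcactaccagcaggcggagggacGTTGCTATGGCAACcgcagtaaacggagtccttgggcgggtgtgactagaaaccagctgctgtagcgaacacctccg
Tekt1, chr11:72361833-72362132, minus strand: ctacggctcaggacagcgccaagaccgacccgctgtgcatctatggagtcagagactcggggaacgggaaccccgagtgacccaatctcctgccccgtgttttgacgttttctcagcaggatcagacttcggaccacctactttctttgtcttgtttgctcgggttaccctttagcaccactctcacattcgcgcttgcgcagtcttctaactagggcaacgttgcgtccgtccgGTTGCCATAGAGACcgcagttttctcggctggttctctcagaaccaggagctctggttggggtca
Ccdc153, chr9:44240427-44240726, plus strand: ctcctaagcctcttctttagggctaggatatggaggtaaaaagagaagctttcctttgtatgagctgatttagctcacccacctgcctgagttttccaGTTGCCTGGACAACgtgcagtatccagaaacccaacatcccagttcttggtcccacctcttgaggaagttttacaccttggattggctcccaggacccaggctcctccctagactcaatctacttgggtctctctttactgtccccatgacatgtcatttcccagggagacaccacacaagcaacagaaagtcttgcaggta
Dnah6, chr6:73221582-73221881, minus strand: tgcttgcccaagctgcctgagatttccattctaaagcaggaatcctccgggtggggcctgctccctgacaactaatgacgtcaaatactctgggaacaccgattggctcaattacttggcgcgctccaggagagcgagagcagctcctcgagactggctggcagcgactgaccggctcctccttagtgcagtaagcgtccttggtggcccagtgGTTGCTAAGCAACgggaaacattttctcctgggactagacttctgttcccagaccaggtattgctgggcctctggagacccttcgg
The matches begin 27, 15, 152 and 36 bases before the start site of Cfap44, Tekt1, Ccdc153 and Dnah6. The 4 genes differed in library order: Tekt1 was lowest in WT replicate 4, Dnah6 and Ccdc153 were lowest in KO replicate 1, and Cfap44 had its lowest values in WT replicates 1, 2 and 4.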

How the data were processed

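Poly(A) RNA of mouse hippocampus was sequenced in 4 KO and 4 WT libraries, prepared from 1000 ng of RNA with a strand-marking kit and 12 PCR cycles, per the labels' protocols. The authors deposited a table of raw counts per Ensembl gene. The submitters' processing notes name bcl2fastq 2.17.1.14 and mm10. Aligner, counter, annotation and strand setting were not given in the sources used here. Symbols were paired with 31292 of 31417 gene IDs, and positions and exon overlaps come from the GENCODE M21 annotation.

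Genes passing edgeR's filterByExpr were tested with edgeR 4.0.16 (R 4.3.3), quasi-likelihood, TMM factors and Benjamini-Hochberg adjustment over 16228 genes. An adjusted p of 0.05 was the threshold. DESeq2 1.42.0, limma 3.58.1 (voom with sample weights), other scalings and filters, a replicate block and leaving out libraries were alternatives. The script was tested on simulated data. Single genes also had an exact two-sided permutation test over all 70 assignments of 4 libraries to each genotype. Intervals cover counting error only. Total counts were 29301974 to 36552757 per library. After the filter and TMM scaling, 1 count is 0.0272 to 0.0346 CPM.

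The 10 genes and the lists were chosen with earlier results of these data known. Of 219 list entries 217 were found. Besides these genes and Dclk3, the text names the 10 genes most like the 10 in library pattern and, from each list, up to 3 genes of highest mean CPM. Genes outside that rule are Ttc14, Gfap, Tmem212, Dynlrb2, Fam183b, Spef1, Lrrc6, Mcidas, Nwd2, Wdr3, Spag17os and Gm20560. The last 3 are named for overlapping a motile cilium gene, and the others were chosen after their values were seen.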

Additional observations from a re-analysis of the deposited data

Results flagged for a closer look

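In each case below 1 library stood far from the other 3 of its genotype: its gap to the nearest of them, divided by the range of the 4, exceeded Dixon's critical value at the 95% level. The 156 groups of 4 libraries examined were KO and WT for each gene chosen by the naming rule, for 6 further genes named in the text and for each list's sum. There were 9 such cases, and chance alone gives about 1 in 20 groups. Over all 217 listed genes, most of them not described here, 20 of 434 groups (4.61%) passed the same value. Among the motile cilium genes it was Cfap44, where WT replicate 3 had 4.98 CPM against 3.65 to 3.86 CPM in the other WT libraries (ratio 0.835). The ependymal marker Tmem212 had 1.62 CPM in WT replicate 4 against 2.78 to 2.93 CPM in the others (0.888). Cfap45, of the inner wall of the doublets, had 3.79 CPM in WT replicate 3 against 2.73 to 2.87 CPM in the others (0.874). Dnaaf5, a dynein arm assembly gene, had 7.14 CPM in KO replicate 2 against 6.01 to 6.16 CPM in the other KO libraries (0.871). The summed central apparatus genes stood at 81.5 CPM in KO replicate 2 against 62.1 to 65.2 CPM in the other KO libraries (0.842). E2f4, a transcription factor of multiciliated cells with wider roles in the cell cycle, had 20.8 CPM in WT replicate 4 against 22.1 to 22.4 CPM (0.836). Summed markers of ventricle-lining progenitors were 220.8 CPM in WT replicate 4 against 263.6 to 270.5 CPM (0.860). In WT replicate 2, Dclk3 had 39.3 CPM against 20.8 to 23.5 CPM (0.858), and Gfap 1805 CPM against 442 to 567 CPM in the other WT libraries (0.908).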

How the results depend on the processing

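None of the 10 motile cilium genes and none of the other listed motile cilium genes was called under any alternative. Over all genes, DESeq2 called 5, the fit with the replicate block 1 and leaving out one library at a time 0 to 1. Leaving out both libraries numbered 2, an alternative chosen after seeing the data, called 1. Dclk3 was among the calls of DESeq2, of the block (log2 fold change -1.76), without WT replicate 2 and without both libraries numbered 2. Genes at an unadjusted p under 0.05 numbered 1505 with limma-voom, 556 to 1777 without one library and 502 without both numbered 2. For the 10 genes that count was 1 with the block, 1 to 2 without one library and 0 without both numbered 2. The number above 0 was 4 to 9 without one library, and the number not overlapping 0 to 2. Signs turned in limma-voom for Dnah5 (-0.20), Dnah6 (0.047) and Ccdc153 (-0.012), with the block for Ccdc153 (-0.048), and without both numbered 2 for Dnah5 (-0.0030), Dnah6 (0.070) and Ccdc153 (-0.034). Without one library at a time the log2 fold change ran from -0.074 to 0.17 for Foxj1, -0.0012 to 0.19 for Ccdc40, -0.13 to 0.14 for Dnah5, -0.29 to 0.19 for Dnah6, -0.036 to 0.31 for Rsph1 and -0.20 to 0.18 for Ccdc153, while Ccdc39, Cfap44, Tekt1 and Spag17 kept their signs. The cause was not tested. Spag17 did not pass the filter of 1 CPM in 4 libraries. Same-numbered libraries had correlated deviations of -0.22 to 0.14, and 2 of 8 libraries correlated best with their own number, so the numbers were not taken as pairs. Choroid plexus sums and Dnah5 did run alike by number in both genotypes, with the sums highest and Dnah5 lowest in the libraries numbered 2. The block gave Dnah5 an SE of 0.12, against 0.21 without it. With the block the SE also fell for Foxj1, Dnah6, Rsph1, Tekt1, Ccdc153 and Dclk3 (0.11, against 0.22). It rose for Ccdc39, Ccdc40, Cfap44 and Spag17. Counting error limits Spag17 most, at 13 to 33 counts a library.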

Other observations

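Markers of the cell types next to the ventricle were read beside the motile cilium genes. The 10 astrocyte markers summed to 7598 to 9029 CPM in KO libraries and 7545 to 9051 CPM in WT libraries. The 8 meningeal and fibroblast markers summed to 345, 312, 221 and 399 CPM in KO replicates 1 to 4, against 190, 276, 568 and 185 CPM in WT replicates 1 to 4. WT replicate 3 was the library richest in them, a different one from the library richest in choroid plexus markers. Thalamic and habenular markers summed to 188 to 220.1 CPM in KO libraries and 184 to 228 CPM in WT libraries. edgeR called 0 genes of these 3 lists at an adjusted p under 0.05; at an unadjusted p under 0.05 it marked 1, the thalamic and habenular marker Nwd2. Nwd2 averaged 38.8 ± 3.64 CPM in KO and 45.2 ± 3.68 CPM in WT (SD, n = 4 each; log2 fold change -0.22, edgeR adjusted p = 0.796) and was picked after its values were seen.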
